A study of Mus musculus with 6 samples.

Results

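The genes described here encode the proteins of the cytosolic ribosome, the particle that translates all nuclear-encoded messages. They were chosen by symbol, as the genes whose platform symbol starts with Rpl or Rps and a digit, with Rplp0, Rplp1, Rplp2 and Rpsa, and without the S6 kinases and pseudogene symbols. The array's annotation held 65 such genes on 96 probes, out of 45281 probes in all. The brightest probe stood for a gene, and 61 of the 65 genes lay above the brightness limit, which was the median of all probes, 7.48 on the log2 scale. Rpl17, Rps20, Rps23 and Rpl39l lay below it on their only probe and were not tested. The annotation listed no probe under several other symbols of the family, among them Rpl5, Rpl11 and Rps27, which are not analysed here. Of the symbols the rule took in, Rps19bp1 names a protein that binds Rps19 and Rps23rg1 a retrogene, and neither is a subunit of the ribosome.

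The study sorted cells of mouse bone marrow by their surface Ly6C and hybridised total RNA of each sort to Illumina bead arrays. The Ly6C low sort was called granulocytic progenitors (GP, n = 3 arrays), and the Ly6C high sort MLPG, for monocyte-like precursors of granulocytes (n = 3 arrays). The sources name no strain, age, sex, genotype or treatment for the mice. They also do not say whether replicates were separate animals. If they were not, the p-values below reflect sample-to-sample spread alone, possibly a technical one. Values are the authors' normalized intensities. Every difference is on the log2 scale and has GP subtracted from MLPG.

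The ribosome has a small subunit, 40S, which reads the message, and a large subunit, 60S, which joins amino acids and holds the exit tunnel of the new chain. Messages of ribosomal proteins are among the most abundant in growing cells, and most start with a short pyrimidine tract, the TOP (terminal oligopyrimidine) element, through which the kinase mTOR controls their translation. Growing myeloid progenitors need many ribosomes, and loss of 1 copy of several of these genes causes Diamond-Blackfan anaemia in humans.

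The sequences around the annotated starts are shown for all 6 members that were higher in MLPG at an unadjusted p under 0.05, in order of p, and for Rpl3l, the only member lower at that level. Capitals mark the letters CCGGAAG on either strand, the core of sites bound by ETS factors such as GABP. Rps7, Rpl26 and Rpl31 hold 1 match each, and Rpl27, Rpl4, Rps15 and Rpl3l hold none. Each stretch runs from 90 bases before to 30 bases after the start annotated by RefSeq (GRCm38.p6), 5′ to 3′ on the gene's strand. The annotated start may lie some bases off the true one, and of the annotated starts of Rpl3l the one lowest on the chromosome is shown.
Rpl27 (chr11:101442155-101442274, plus strand): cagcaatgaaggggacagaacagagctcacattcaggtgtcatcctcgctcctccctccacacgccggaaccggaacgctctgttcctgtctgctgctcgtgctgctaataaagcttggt
Rpl4 (chr9:64173297-64173416, plus strand): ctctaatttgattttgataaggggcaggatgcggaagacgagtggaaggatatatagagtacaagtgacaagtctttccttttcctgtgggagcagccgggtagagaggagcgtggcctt
Rps7 (chr12:28635924-28636043, minus strand): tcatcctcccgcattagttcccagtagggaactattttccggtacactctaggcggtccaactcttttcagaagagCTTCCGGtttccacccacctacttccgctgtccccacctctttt
Rpl26 (chr11:68901476-68901595, plus strand): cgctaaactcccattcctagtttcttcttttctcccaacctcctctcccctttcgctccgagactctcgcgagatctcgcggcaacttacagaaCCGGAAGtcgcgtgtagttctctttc
Rps15 (chr10:80292341-80292460, plus strand): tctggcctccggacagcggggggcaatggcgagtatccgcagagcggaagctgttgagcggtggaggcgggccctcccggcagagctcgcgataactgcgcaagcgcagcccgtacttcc
Rpl31 (chr1:39367761-39367880, plus strand): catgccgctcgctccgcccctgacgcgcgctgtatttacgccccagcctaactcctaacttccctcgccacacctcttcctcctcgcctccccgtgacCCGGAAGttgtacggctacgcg
Rpl3l (chr17:24727736-24727855, plus strand): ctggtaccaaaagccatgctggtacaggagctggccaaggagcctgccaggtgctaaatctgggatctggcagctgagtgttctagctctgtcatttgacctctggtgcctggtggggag

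Windows of 300 bases, 250 before the start and 50 after it, were given for 54 of the 65 genes, 64 windows in all, and 7 patterns were searched in them. CCGGAAG was marked in the stretches above, and their length was set, after the shares of all 7 patterns had been seen, and these shares are therefore given in full. CCGGAAG, on either strand, was in 24 of the 64 windows (37.5%) and in 8.86% of the 32851 windows of all genes. GGGCGG, the core of Sp1 sites, on either strand, was in 39 windows (60.9%) against 35.7% of all. CTTTCC, on either strand, was in 31 (48.4%) against 26.6%, and CTCTTTC, on either strand, in 14 (21.9%) against 8.16%. TATAAA, searched on the gene's strand from 40 to 15 bases before the start, was in 1 window (1.56%) against 1.99%. A run of at least 8 pyrimidines that reached within 20 bases of the start was in 28 windows (43.8%) against 21.0%. Cytosine at the start itself with at least 4 pyrimidines after it, the form of a TOP element, was in 9 (14.1%) against 2.51%. Matches of CTTTCC can overlap those of the longer CTCTTTC, and both can lie in a pyrimidine run. Several windows come from 1 gene, and these counts of letters do not show what is bound.

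In MLPG the ribosomal protein genes lay slightly higher than in GP, by amounts mostly within the spread of the arrays. Of the 61 genes, 47 (77.0%) had a difference above 0 and 14 below, with a median of 0.08, against 51.7% above 0 and a median of 0.01 over all 15440 features (named genes and unnamed probes) tested. None of the 61 passed the test (0 genes, limma, adjusted p under 0.05), where 0.512% of all features did, 0.142% in the higher direction and 0.369% in the lower one. At an unadjusted p under 0.05, 6 lay higher and 1 lay lower, 9.84% and 1.64% of the members, against 7.23% and 7.42% of all features (14.7% in either direction). The share of higher members lay near the background. In 11 members all MLPG arrays lay above all GP arrays (18.0%, against 10.7% of all features), and in 2 members all lay below (3.28%, against 9.66%).

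**Figure D1:**
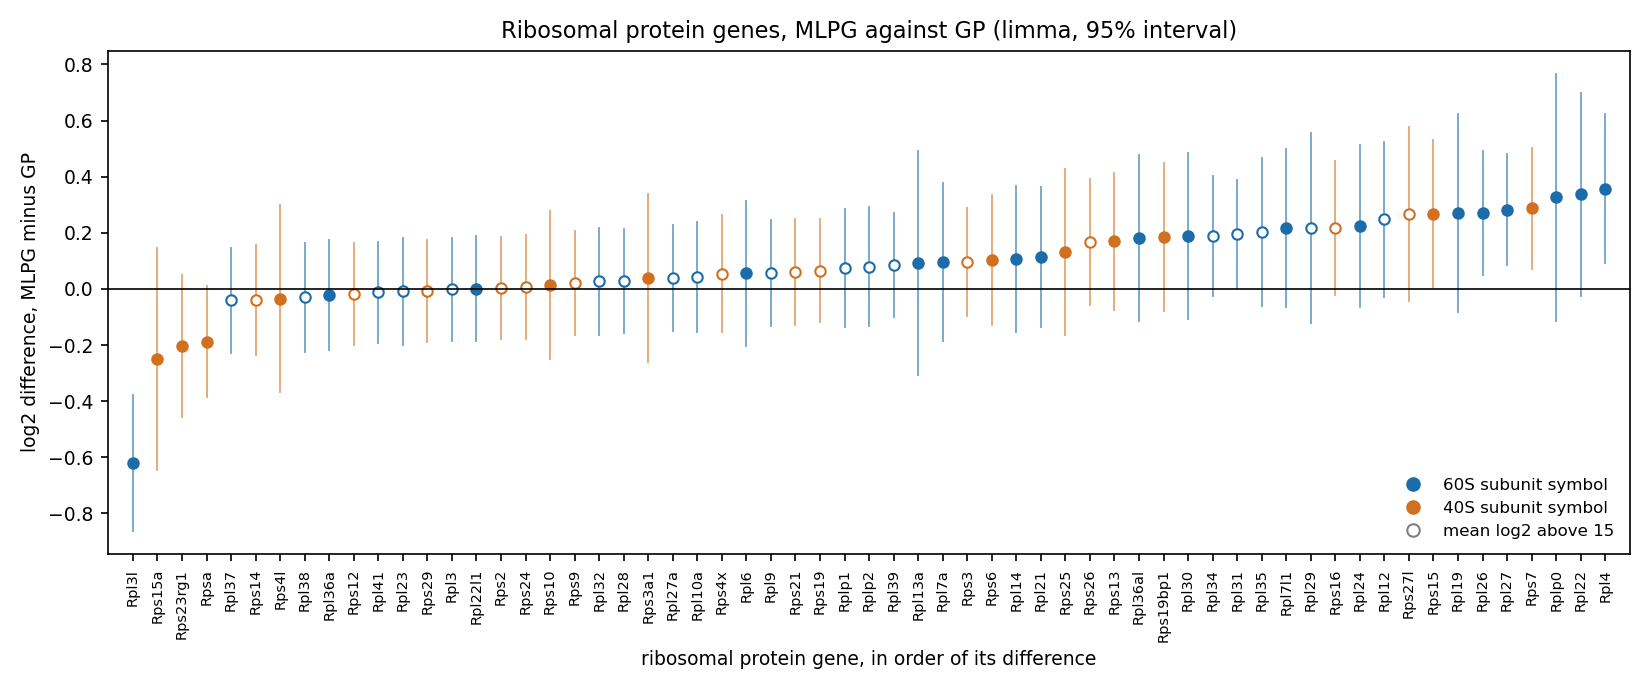
Log2 difference, MLPG minus GP, of each of the 61 ribosomal protein genes (points) with its 95% interval from limma (lines), in order of the difference. Blue points are 60S and orange points 40S symbols, and open points are genes whose mean log2 intensity was above 15; 47 of 61 points lie above 0, and Rpl3l lies apart at -0.62.

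Members were also set out by the brightness of their probes. The highest intensity on the arrays was 71670, or 16.13 on the log2 scale, and 31 of the 61 genes had a mean log2 value above 15. Of those 31, 23 lay above 0, with a median difference of 0.054 and a range from -0.04 to 0.27, and 60.6% of the 249 other features of that brightness lay above 0. Between 12 and 15, 14 of 15 members lay above 0, with a median of 0.18, against 55.0% of 2695 other features. Between 10 and 12, 4 of 5 did, with a median of 0.22, against 52.9% of 3514. From the limit to 10, 6 of 10 did, with a median of 0.03 and a range from -0.62 to 0.19, against 49.9% of 8921. The median was thus small both in the brightest and in the dimmest range.

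The ranges of brightness were set after the probes had been seen. Within 1 gene, dimmer probes often gave larger differences. For 16 genes more than 1 probe lay above the brightness limit. Of their 22 dimmer probes, 19 had a difference above 0, and 15 had a larger difference than the brightest probe of the same gene. The median over the 22 was 0.15. Rpl38, a protein of the large subunit, differed by -0.03 on a probe at 16.05 and by 0.26 on a probe at 10.71. Rps24, of the small subunit, differed by 0.01 at 16.04, by 0.22 at 11.46 and by 0.09 at 8.53. Rps13 went the other way, with 0.17 on its brightest probe, at 14.93, and -0.47 on a dimmer one, at 10.48. In a choice made after seeing the data, the brightest probe at or below 15 stood for a gene. Of 39 members, 33 then lay above 0, with a median of 0.17. Again 0 passed the test (limma), where 105 of 15230 features did. At p under 0.05 before adjustment (limma), 7 lay higher and 1 lower. The shares of all features above 0 and at that p were not counted in this setting.

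**Figure D2:**
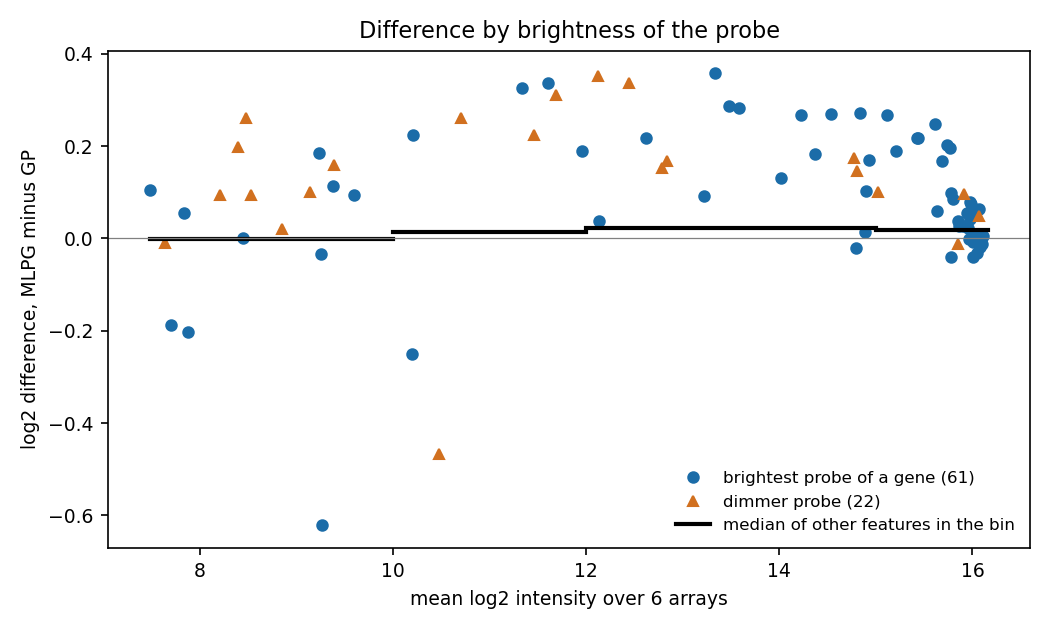
Log2 difference, MLPG minus GP, against mean log2 intensity over 6 arrays for the 83 probes of ribosomal protein genes above the brightness limit. Circles are the 61 brightest probes, triangles the 22 dimmer ones, and black lines the median of other features in each range of brightness. The brightest probes above 15 lie between -0.04 and 0.27, and those below 10 reach from -0.62 to 0.19.

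The arrays of a group did not lie together. On GP array 1 the members lay lowest, with a median of -0.09 relative to each gene's mean over the 6 arrays. GP arrays 2 and 3 were at 0.006 and 0.002, and MLPG arrays 1 to 3 at 0.03, 0.008 and 0.06. GP arrays 2 and 3 were thus near MLPG array 2, and the difference between the groups lay mainly in GP array 1 on the low side and MLPG array 3 on the high side. GP array 1 had the lowest value of all 6 arrays in 35 of 61 members (57.4%), in 25.4% of the other features, where its median was 0.002, and in 30.6% of the 7770 others within the members' range of brightness. MLPG array 3 had the highest value in 25 of the 61 members, in 3172 of 15379 other features, and in 1785 of the 7770 within the members' range. Without GP replicate 1, 44 of 61 members lay above 0 (median 0.04), against 8136 of 15440 features (median 0.01). At an unadjusted p under 0.05 (limma) there were then 4 members in all, Rpl27, Rpl4 and Rps7 higher and Rpl3l lower. The share of all features at that level was not counted without that array. Between 12 and 15 on the log2 scale, 12 of 15 members were above 0 without it, with a median of 0.13, against 1473 of 2695 other features. Of the 22 dimmer probes 21 were above 0, with a median that fell from 0.15 to 0.05.

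**Figure D3:**
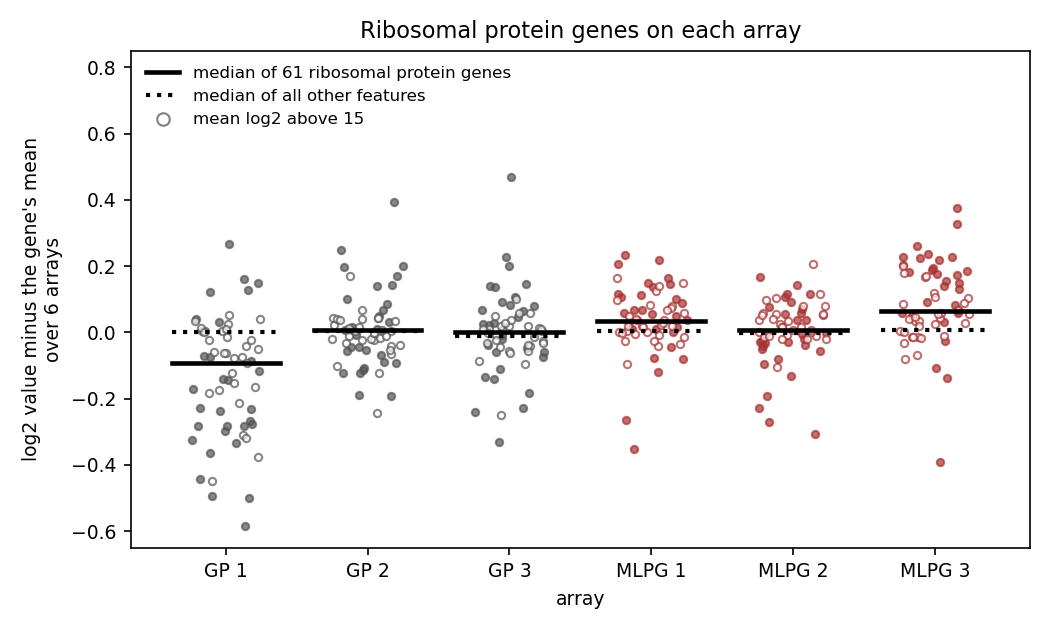
Log2 value minus the gene's mean over 6 arrays, for each of the 61 ribosomal protein genes (points) on each array, GP in grey and MLPG in red, with open points for genes above a mean log2 of 15. Solid bars are the medians of the members and dotted bars those of all other features; GP 1 has the lowest solid bar, at -0.09, and MLPG 3 the highest, at 0.06.

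The GP arrays also differed among themselves in markers of cell types. Monocyte markers, 5 of 6 listed, had a summed intensity of 9509, 27220 and 17170 on GP arrays 1 to 3. In MLPG that sum was 41070 to 44600. That of 4 erythroid markers of 6 listed was 6633 on GP array 1, 3036 and 2823 on the other GP arrays, and 798 to 2583 in MLPG. That of 5 eosinophil markers of 5 was 54350 on GP array 1, 125900 and 111300 on the other GP arrays, and 3915 to 7154 in MLPG. Stem cell markers, 3 of 5 listed, summed to 8959, 12850 and 7027 on GP arrays 1 to 3 and 7259 to 8811 in MLPG. Megakaryocyte markers, 2 of 4 listed, summed to 773.3, 1118 and 810 on GP arrays 1 to 3. In limma 4 of the 5 eosinophil markers passed, lower in MLPG (lowest adjusted p = 0.0034), and 1 of the 5 monocyte markers, higher (0.027). None of the 4 erythroid markers did (0 genes), where 0.512% of all features passed. With the replicate block 4 eosinophil and 2 erythroid markers passed lower and 5 monocyte markers higher, where 4.08% of all features passed. The part of these cells in the ribosomal protein values was not tested. In such bulk samples fewer cells of a type and less RNA per cell cannot be told apart. Markers of neutrophil progenitors, such as Elane and Mpo, were near the top of the scale in both groups, with summed intensities of 301000 to 308800 in GP and 302300 to 317700 in MLPG (5 of 5 markers). Those of neutrophils summed to 324900 to 336100 and 296400 to 315300 (5 of 6).

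By subunit, 29 of 36 genes with a 60S symbol lay above 0, with a median of 0.09, and 18 of 25 with a 40S symbol, with a median of 0.05. At an unadjusted p under 0.05 there were 4 higher and 1 lower 60S genes, and 2 higher and 0 lower 40S genes (limma), of 36 and 25, beside 7.23% higher and 7.42% lower over all features. Without GP replicate 1 the medians were 0.04 and 0.014. The 2 subunits were not tested against each other.

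Among 60S genes Rpl27, mutated in some families with Diamond-Blackfan anaemia, had the smallest p of the higher members. Its intensity was 11090, 11510 and 10820 on GP arrays 1 to 3 and 14190, 12790 and 13670 on MLPG arrays 1 to 3. The groups did not overlap, and no GP array stood apart. The difference of 0.28 ± 0.09 (SE), or 1.22-fold, was not called, at a limma adjusted p of 0.21, or 0.13 when replicate numbers were blocked. Without GP replicate 1 it was 0.28.

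Rpl4, whose extension lines the exit tunnel, was at 8069, 10110 and 9500 in GP and at 11210, 11190 and 12990 in MLPG. All MLPG values lay above all GP values, with GP array 1 lowest and MLPG array 3 highest. The difference was 0.36 ± 0.12 (SE), 1.28-fold (adjusted p = 0.23 in limma), and 0.26 without GP replicate 1. Rpl26, which also binds the message of the tumour suppressor p53, was at 24210, 28320 and 27930 in GP and at 32610, 30960 and 33370 in MLPG, again without overlap. It differed by 0.27, or 1.21-fold (adjusted p = 0.26 in limma), and by 0.20 without GP replicate 1. Rpl31, at the mouth of the exit tunnel, was at 49470, 53310 and 53580 in GP and at 60810, 60160 and 57990 in MLPG. The groups did not overlap, on a probe near the top of the scale, and the difference was 0.20 (adjusted p = 0.34 in limma). It was 0.16 without GP replicate 1. Dimmer probes of Rpl31, at 12.84 and 12.79 on the log2 scale, differed by 0.17 and 0.15, and on the one at 12.79 the groups overlapped.

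Rplp0, Rplp1 and Rplp2 form the stalk of the large subunit that recruits elongation factors. Rplp0 was at 1718, 2509 and 2859 in GP and at 2803, 2579 and 3357 in MLPG. The groups overlapped, and GP array 1 was the lowest. Its difference was 0.33 (interval -0.12 to 0.77), and 0.11 without GP replicate 1. Rplp1 and Rplp2 lay at 15.99 and 15.98 on the log2 scale and differed by 0.08 and 0.08, or by 0.020 and 0.020 without GP replicate 1.

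Among 40S genes Rps7, which acts early in the assembly of its subunit and can bind Mdm2, the ligase that degrades p53, was at 9404, 10580 and 11070 in GP and at 12360, 12580 and 12880 in MLPG. The groups did not overlap, and the MLPG arrays lay close together. The difference was 0.29 ± 0.09 (SE), 1.22-fold (limma adjusted p of 0.23, or 0.12 when blocked), and 0.22 without GP replicate 1. Rps15, needed for the export of small subunits from the nucleus, was at 15240, 17770 and 19870 in GP and at 20010, 21570 and 21770 in MLPG. The highest GP value came close to the lowest MLPG value. It differed by 0.27 (adjusted p = 0.33 in limma), and by 0.17 without GP replicate 1.

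Other 40S genes known from disease or signalling differed little. Rps6, the substrate of S6 kinase, differed by 0.10 (interval -0.13 to 0.34), and by 0.012 without GP replicate 1. Rps19, the gene most often mutated in Diamond-Blackfan anaemia, differed by 0.06 (-0.12 to 0.25) and Rps14, lost in the human 5q- syndrome, by -0.04 (-0.23 to 0.15), both on probes above 15. Rpsa, also known as a laminin receptor, was dim, at 225.7, 229.6 and 211.2 in GP and 191.6, 204.1 and 189.1 in MLPG, close to the median of all probes, 179.3. It did not overlap between the groups, in the lower direction, with a difference of -0.19 (adjusted p = 0.36 in limma). Apart from Rpl3l, described below, the other members with the smallest p among those lower in MLPG overlapped between the groups. Rps15a ran from 1102 to 1545 in GP and from 951.2 to 1345 in MLPG, a difference of -0.25 (interval -0.64 to 0.15). Rps23rg1 differed by -0.20, and Rpl37, Rpl38, Rps14 and Rpl36a by -0.04 to -0.02. Rps16, of the higher members, was at 40850, 37580 and 45820 in GP and at 46620, 51390 and 46220 in MLPG, without overlap, a difference of 0.22 (adjusted p = 0.38, limma). Of 18 listed genes of Diamond-Blackfan anaemia, 10 were measured, all of them members already counted above. Of the 10, 9 lay above 0, with a median of 0.18. At an unadjusted p under 0.05 (limma) there were 4, all higher, beside 9.84% of the members and 7.23% of all features. These are among the 6 higher members given above, so they are no separate result, and 0 passed after adjustment. Without GP replicate 1 their median was 0.10, with 8 above 0.

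**Figure D4:**
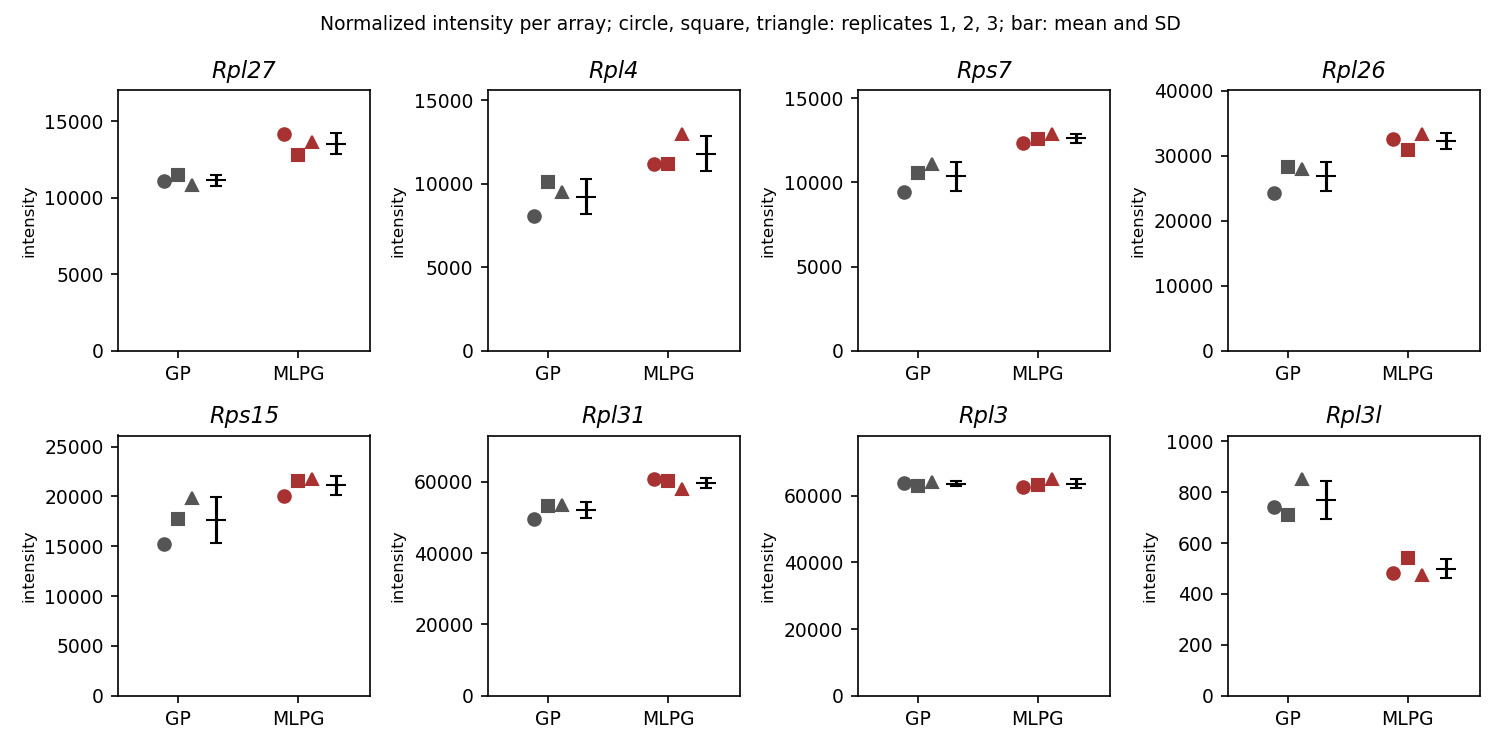
Normalized intensity of 8 ribosomal protein genes on each array, GP in grey and MLPG in red, with circles, squares and triangles for replicates 1, 2 and 3 and the mean and SD of 3 arrays in black. The axes start at 0; the values of Rpl27, Rpl4, Rps7, Rpl26, Rps15 and Rpl31 do not overlap and are higher in MLPG, those of Rpl3 overlap, and those of Rpl3l are lower in MLPG.

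Paralogs of ribosomal proteins can take the place of the common form in some tissues. Rpl3l, the form of Rpl3 found in heart and skeletal muscle, was the member with the smallest p. It was at 743.4, 711.6 and 852.3 in GP and at 482.8, 542.8 and 472.7 in MLPG. Every GP value lay above every MLPG value, and the gap was wider than the range of either group. The difference was -0.62 ± 0.11 (SE), 1.54-fold higher in GP, and was not called (adjusted p = 0.056 in limma). With the replicate block it was (limma, 0.025), where 4.08% of all features passed. It was also past the threshold without the brightness limit (0.037), with array quality weights (0.021) and without GP replicate 2 (0.036), and missed it in the other alternatives. Over all alternatives its adjusted p ranged from 0.021 to 0.23 and its difference from -0.70 to -0.54, always lower in MLPG. The summed eosinophil, erythroid and neutrophil markers, given above, were higher in GP in the same direction, and the monocyte markers were lower. The erythroid sums came close, with a lowest of 2823 in GP and a highest of 2583 in MLPG. The stem cell sums overlapped between the groups, and all 3 measured genes had differences below 0. The sum of 2 megakaryocyte markers of 4 listed was higher in GP, at 773.3 to 1118, against 390.7 to 566.1 in MLPG. Within GP the eosinophil sum was highest on array 2, where Rpl3l was lowest. Within MLPG the eosinophil sum was highest on array 2 as well, at 7154, and there Rpl3l was highest. The part of any of these cells in Rpl3l was not tested. Rpl3 itself was at 63730, 62970 and 64250 in GP and at 62580, 63110 and 65060 in MLPG, overlapping, with a difference of -0.002 (interval -0.18 to 0.18) on a probe near the top of the scale.

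Differences between the genes of a pair were not tested. Rpl22, which also binds viral and cellular RNAs, differed by 0.34 (interval -0.03 to 0.70), with GP values of 2204, 3434 and 2844 and MLPG values of 3646, 3260 and 3647 that overlapped, and by 0.17 without GP replicate 1. Its paralog Rpl22l1 was at 356.4, 355.8 and 336.6 in GP and 349.6, 342.8 and 356.4 in MLPG, a difference of 0.0002 (-0.19 to 0.19). The difference of Rpl36al was 0.18, or 0.08 without GP replicate 1, and that of Rpl36a -0.02. Rpl7l1, a factor of large subunit assembly, differed by 0.22, or 0.13 without that array. Rps27l, a paralog of Rps27 induced by p53, differed by 0.27, and by 0.17 without GP replicate 1 and 0.42 without GP replicate 2. Rpl39 differed by 0.08 without overlap, while its paralog Rpl39l was too dim to test. Rps4x differed by 0.05 and Rps4l by -0.03. None of these passed the test (0 genes, limma, 0 at an unadjusted p under 0.05). Ribosomal protein genes have many processed copies in the mouse genome, so a probe may also read a near-identical transcript, and the separate values of paralogs are uncertain.

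Other lists of translation genes are described by the same counts, and 0 of their genes passed in limma. Of 73 measured mitochondrial ribosomal protein genes, 69 lay above 0, with a median of 0.16, and before adjustment 15 of them reached p under 0.05, all of these higher, beside 7.23% of all features. None of them passed in limma (0 genes). With the block 1 of the 73 did, Mrpl16, where 4.08% of all features passed. It was at 1728 ± 161 (SD, n = 3) in GP and 2296 ± 172 in MLPG. Its limma adjusted p was 0.16, or 0.048 when blocked. Of 29 ribosome assembly factors, 28 lay above 0, with a median of 0.27, and of 22 translation initiation factors 19 did, with a median of 0.17. Of 18 other genes of TOP messages or of the ribosome's surface, 16 lay above 0, with a median of 0.22. At an unadjusted p under 0.05 (limma), 7 of the 29, 7 of the 22 and 3 of the 18 lay higher and 0 lower. Over all features 7.23% lay higher and 7.42% lower at that level. The 3 smallest p-values of each list belonged to Mrpl1, Mrpl16 and Mrps2, with differences of 0.38, 0.41 and 0.48, to Nob1, Pes1 and Nop10, with 0.49, 0.45 and 0.29, to Eif3a, Eif4g2 and Eif2s2, with 0.35, 0.33 and 0.28, and to Hnrnpa1, Nap1l1 and Btf3, with 0.30, 0.30 and 0.32. Nob1, the nuclease that makes the last cut of the small subunit's RNA, had a mean intensity of 1839 ± 297 (SD, n = 3) in GP and 2560 ± 62.7 in MLPG, with a limma adjusted p of 0.16. Eif3a, the scaffold of initiation factor eIF3, had means of 5537 ± 178 and 7063 ± 441 (adjusted p = 0.15, limma). GP array 1 was lowest in 58 of the 73 mitochondrial genes, 26 of the 29 assembly factors, 18 of the 22 initiation factors and 13 of the 18 others. Without GP replicate 1 the 4 medians were 0.12, 0.11, 0.08 and 0.12, with 62, 25, 16 and 13 genes above 0.

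Further lists were mixed. Of 15 genes of ribosomal RNA synthesis 11 lay above 0 (median 0.10, and 0.03 without GP replicate 1), and of 12 importers and chaperones of ribosomal proteins 11 did (0.22, and 0.10 without it). The smallest p-values were those of Rrn3, Polr1e and Taf1d, with differences of 0.26, 0.21 and 0.19, and of Pdcd2l, Ipo5 and Pdcd2, with 0.29, 0.33 and 0.30. Of 16 genes of mTOR and S6 kinase signalling 10 lay above 0, with a median of 0.03, and 8 without GP replicate 1, with a median of 0.015. Rictor differed by -0.31 and Mtor by 0.24. Mlst8, a subunit of both mTOR complexes, differed by -0.50 (limma adjusted p of 0.12, or 0.026 when blocked). Of 9 genes of the p53 response to faulty ribosome assembly 3 lay above 0, with a median of -0.03, and -0.16 without GP replicate 1. Mdm2 differed by -0.40, Sesn1 by -0.24 and Pmaip1 by 0.85. Of 13 transcription factors linked to ribosomal protein genes 2 lay above 0, with a median of -0.08, and 5 without GP replicate 1, with a median of -0.09. Mxd4 differed by -0.26 and Nrf1 by -0.18. Mxd1, an antagonist of Myc, was at 6738 ± 1140 (SD, n = 3) in GP and 3628 ± 468 in MLPG, a difference of -0.89 (limma adjusted p of 0.056, or 0.024 when blocked). In these 5 lists 0 genes passed in limma, with 1, 3, 3, 0 and 1 at an unadjusted p under 0.05 in either direction, beside 14.7% of all features. With the block only Mlst8 and Mxd1 passed, where 4.08% of all features did.

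**Figure D5:**
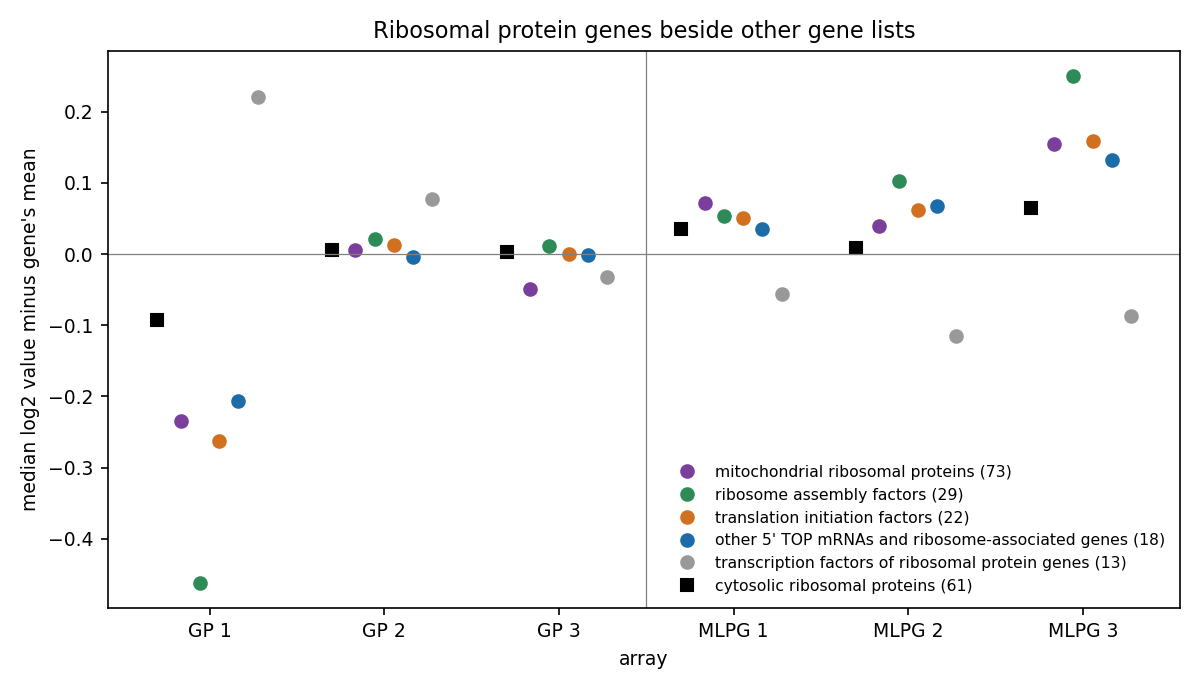
Median log2 value minus each gene's mean over 6 arrays, by array, for the cytosolic ribosomal protein genes (black squares) and 5 other gene lists (coloured circles, number of genes in brackets). On GP 1 the ribosomal and translation lists are lowest, from -0.46 for assembly factors to -0.09 for cytosolic ribosomal proteins, and the transcription factor list is highest, at 0.22.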

How the data were processed

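The authors deposited normalized probe intensity values for 6 arrays on a linear scale; their normalization is not stated, and the sorted values of the arrays differed by at most 0.142% at any rank, the form quantile normalization gives. GenomeStudio is named per the submitters' processing notes, with no version or background step. The lowest value was 88.2, and folds of dim probes are understated where such a background is included. The 12 columns of a second deposited table match no sample's labels and were not used, so detection p-values and bead-level depth are unknown. Gene symbols came from the platform annotation (34885 probes with 1 symbol, 18 with several, 10378 with none); all 65 member genes matched RefSeq by Entrez identifier. Probes with a mean log2 above 7.48 were kept, the brightest standing for its symbol, giving 15440 features. limma 3.58.1 in R 4.3.3 (lmFit, eBayes) tested MLPG minus GP, adjusted by Benjamini-Hochberg over all features. The fit was also run on simulated data with independent noise in each gene and array. Those data held no shifts shared by genes on an array, so they cannot show how the fit handles such shifts. The number of arrays, 3 in each group, limits the precision. Named members were the 8 with the smallest p in each direction and fixed paralogs and known genes; from other lists, up to 3 by p and any that passed. Members and lists were chosen with earlier results of these data known; the ranges of brightness, the probe limit of 15, the placing of Rps23rg1 outside the core subunits and the promoter pattern shown were chosen after seeing the values here. Deviations from group means correlated between same-numbered arrays at 0.376, 0.297 and 0.468, so the replicate number was also fitted as a block; this pairing rests on the values, since the labels give numbers only. Promoter sequences are from RefSeq, GRCm38.p6. B lymphocyte (3 of 6 listed genes, median difference -0.014) and T and NK markers (2 of 5, 0.12) were also measured. So were stem cell (3 of 5, -0.14) and megakaryocyte markers (2 of 4, -0.89), and 0 genes of these lists were called in limma. Pf4 and Ppbp, also listed for megakaryocytes, lay below the brightness limit. With the replicate block both measured megakaryocyte genes were called lower in MLPG (lowest adjusted p = 0.028, limma) and 0 of the others. Of all features 4.08% passed with the block.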

Additional observations from a re-analysis of the deposited data

How the results depend on the processing

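Under 18 alternatives, 17 of them planned, the median of the ribosomal protein genes stayed above 0, from 0.04 without GP replicate 1 to 0.17 with the brightest probe at or below 15. That setting, chosen after seeing the data, gave 0.19 for 60S and 0.10 for 40S genes, and leaving out members above 15 gave 0.19 for 60S genes. Over arrays left out in turn the median ran from 0.04 to 0.12, for 60S genes from 0.04 to 0.13 and for 40S genes from 0.014 to 0.082. The member called was Rpl3l, 1 call each with no filter, with array quality weights and with the replicate block, and 0 to 1 over arrays left out. Members at an unadjusted p under 0.05 (limma) numbered 11 with a variance trend and 4 to 13 over arrays left out. There were 4 without GP replicate 1, MLPG replicate 1 or MLPG replicate 3, and 13 without GP replicate 3. The share of all features at that level was not counted in these settings. Calls over all features numbered 79 as reported, 146 with no filter, 220 with weights, 630 with the replicate block, and 2 to 348 over arrays left out. The block changed no other call among the members.

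Of 452 values of named members under alternatives, 434 kept direction and call. Small uncalled differences changed sign. Over arrays left out in turn Rpl22l1 ran from -0.027 to 0.014, Rpl3 from -0.018 to 0.0097, Rpl36a from -0.063 to 0.015, Rpl38 from -0.062 to 0.00041, Rps14 from -0.063 to 0.00017 and Rps4l from -0.14 to 0.093. Rpl22l1 was at -0.013 with cyclic loess, Rpl3 at 0.0056 with centring on other bright features, and Rpl38 at 0.12 with the mean of probes and at 0.26 with the probe at or below 15. Apart from the probe choices, whose values differ by construction, the cause was not tested. Saturation of the 31 genes above 15 was not tested, and background levels per array were not used.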
